A study of Mus musculus with 96 samples.

Results

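The 4 stem-loops described here belong to the mir-34 and mir-449 family of mouse microRNAs: mir-34a, mir-34b, mir-34c and mir-449a. They were picked by their miRBase identifiers (MI0000584, MI0000404, MI0000403 and MI0001649) out of 1187 stem-loops listed for each library, with earlier results of the same data known, so the tests below describe them and are not independent evidence. All 4 were among the 434 stem-loops that passed the filter on low counts.

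The libraries came from the cerebellum of heterozygous Huntington's disease knock-in mice on the C57BL/6 strain, in which one Htt allele carries human HTT exon 1 with a CAG repeat whose nominal length names the line: Q20, Q50, Q92 or Q140. Wild-type (WT) littermates were sequenced for the Q20 and Q50 lines alone. Each of these 6 genotype groups held 4 females and 4 males at 6 months and the same at 10 months, 96 libraries in all, and Q20 together with both WT groups served as controls. Each library was a small RNA library of 5435778 to 7934044 counts, and the age of an animal could not be told apart from the L tag in its library name, since tags 2, 3 and 4 were used at 6 months and tags 1 and 8 at 10 months. A library was left out of the fits when its connectivity to the other libraries of its age, Z.k, was under -5. This removed Q20 female 2 and Q92 male 4, both at 6 months. The counts were of whole tissue, so fewer cells of a type and less RNA per cell cannot be told apart.

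MicroRNAs of this family are known to repress their targets through a seed, the bases near the 5′ end of the mature strand that pair with messenger RNA. Transcription of mir-34a, which many tissues express, is known to be raised by p53. The mir-34b/mir-34c transcript is a known p53 target as well. In adult tissue it is known mainly from testis and from cells that bear many motile cilia. Examples of such ciliated cells are those of airway, oviduct, ependyma and choroid plexus. The mir-449 cluster is known from the same multiciliated cells, where the family promotes formation of cilia. The names of marker stem-loops for those cells were not matched to identifiers here, so the part of ependyma or choroid plexus in the values below was not tested.

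The mature 5p strands are shown because they carry the seed that defines the family, and the 3p strands of mir-34b and mir-34c because these also share one. They are from RefSeq on GRCm38.p6, written 5′ to 3′, with the seed (bases 2 to 8) in capitals:
miR-34a-5p: uGGCAGUGucuuagcugguugu
miR-34b-5p: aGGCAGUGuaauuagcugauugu
miR-449a-5p: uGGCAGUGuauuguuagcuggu
miR-34b-3p: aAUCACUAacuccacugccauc
miR-34c-3p: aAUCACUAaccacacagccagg

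The seed GGCAGUG occurred in 4 of the 1738 mature entries of the table, which were those of miR-34a-5p, miR-34b-5p, miR-449a-5p and miR-449c-5p. No mature sequence of miR-34c-5p or of mir-449b was found among these entries, so this count says nothing of them. The seed AUCACUA occurred in 2 entries, miR-34b-3p and miR-34c-3p. Bases were compared by position, without gaps and with the seed included. miR-34a-5p and miR-449a-5p shared 15 of 22 bases, and miR-34b-5p and miR-449a-5p shared 10 of 22. This comparison misses bases shared at another offset: each of the 5p strands shown holds uuagcug after the seed. The deposited counts were per stem-loop, so products of the 5p and the 3p arm were summed.

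On GRCm38, mir-34a lies at chr4:150068454-150068555 on the plus strand, in no protein-coding gene; its last 17 bases overlap an exon of Gm37795, a gene model of the type TEC on the same strand. mir-34b (chr9:51103562-51103645) and mir-34c (chr9:51103034-51103110) lie 451 bases apart on the minus strand. In the GENCODE annotation both sit in an intron of Btg4, a gene on the opposite strand, and RefSeq also lists Hoatz over the same bases. mir-449a (chr13:113037534-113037624) lies on the plus strand in an intron of Cdc20b, which is transcribed in the same direction. mir-449b and mir-449c share that host gene, but were not matched to an identifier and have no values here. Counts of the 4 stem-loops were whole numbers in every library to within 0.001, whereas 268 of the 1187 identifiers held a value that was not whole in some library.

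The 4 stem-loops differed widely in level. In FPKM, fragments scaled to the length of the stem-loop and the depth of the library, mir-34c had a mean of 11080 ± 6837 (SD, n = 96 libraries) and mir-34a of 3100 ± 536. The mean FPKM was 519 ± 290 for mir-34b and 28.4 ± 11.2 for mir-449a. Counts of mir-449a ran from 6 to 51 with a median of 16, so its precision was limited by counting. Counts ran from 102 to 828 for mir-34b, from 1314 to 3624 for mir-34a and from 1652 to 17533 for mir-34c. In counts scaled to the library total (CPM), mir-34c made up between 39.9% and 85.4% of the sum of the 4 stem-loops across the 94 libraries retained, and mir-34a between 10.1% and 56.5%.

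**Figure D1:**
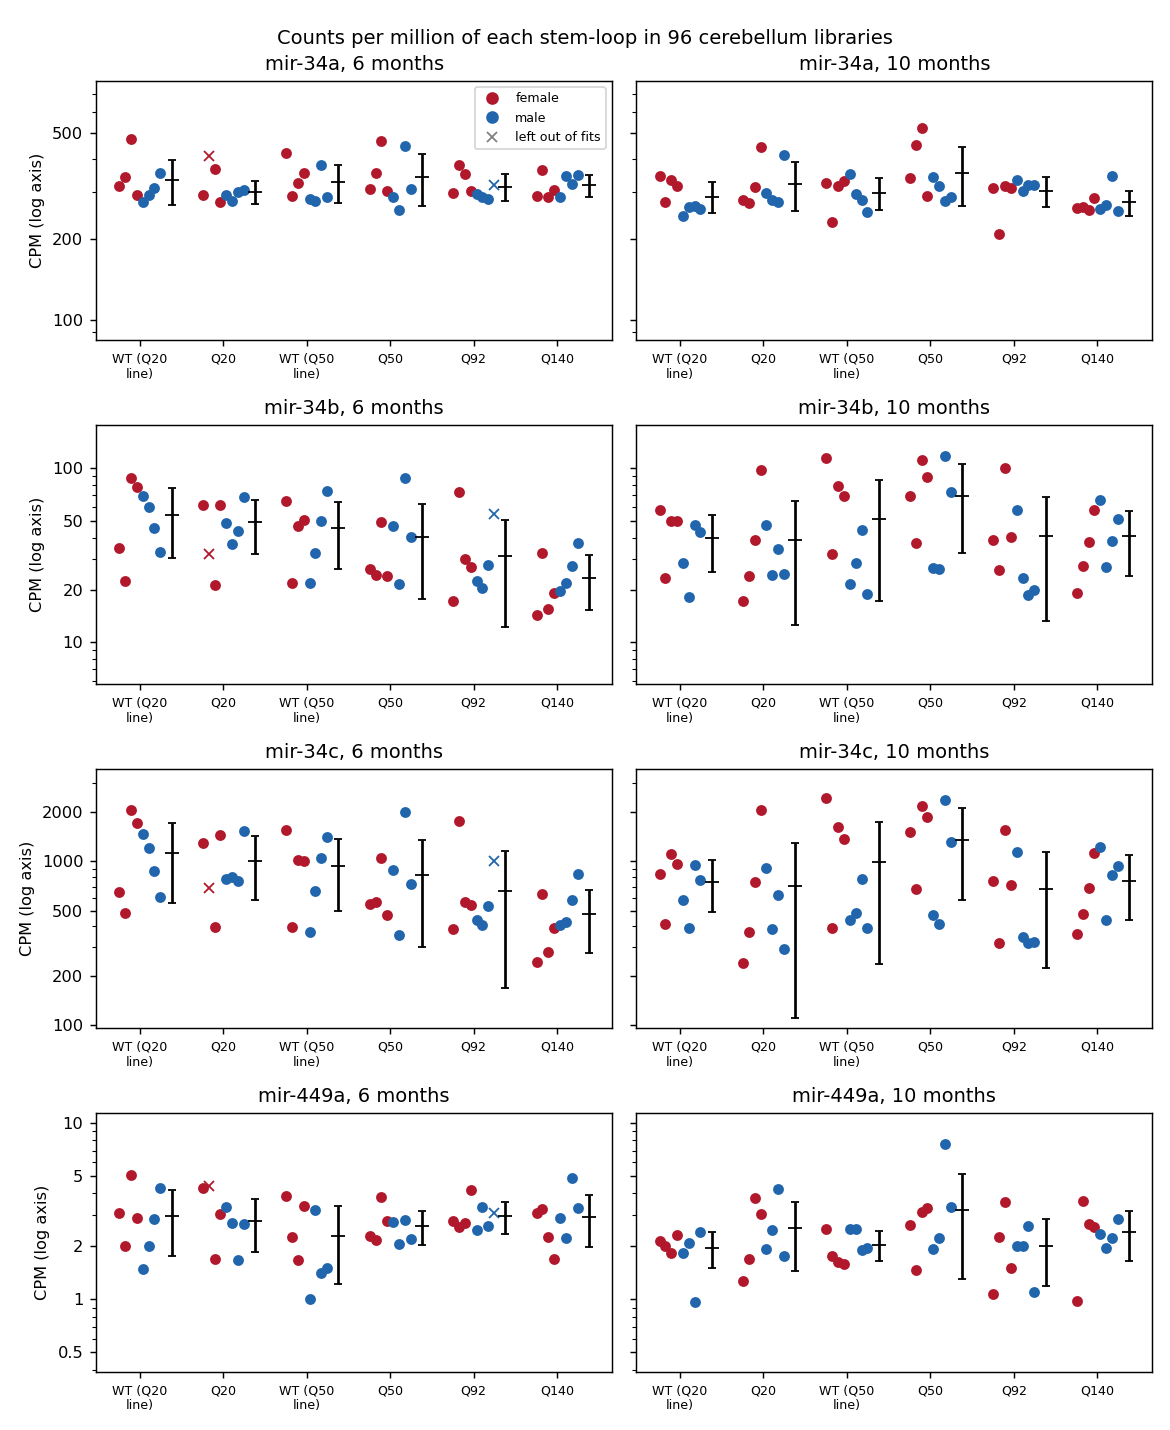
Level (CPM, log axis) of mir-34a, mir-34b, mir-34c and mir-449a in each of the 96 libraries, by genotype group at 6 months (left) and 10 months (right). Points are animals (red female, blue male), crosses are the 2 libraries left out of the fits, and black bars give the mean ± SD of the others; mir-34a stays between 210.1 and 521.9 CPM, while mir-34c runs from 240.6 to 2439 CPM.

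mir-34b and mir-34c varied more between libraries than most stem-loops. Their coefficients of variation over the 94 libraries were 56.4% and 62.3%, higher than those of 92.2% and 93.1% of the stem-loops tested, whose median was 18.5%. Counting alone would give about 5.86% and 1.32% at their mean counts. mir-34a had a coefficient of variation of 17.2%, near the median. For mir-449a it was 39.6%, with 24.1% from counting.

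mir-34b and mir-34c varied together from animal to animal. Across the 94 libraries, log2(CPM + 1) of mir-34b and mir-34c had a Pearson correlation of 0.974 and a Spearman correlation of 0.967. Within age it was 0.987 over 46 libraries at 6 months and 0.975 over 48 at 10 months, and after removal of group and L tag means it was 0.981. Within single L tags the Pearson correlation was between 0.973 and 0.993. Points in these correlations share the library and its depth, but the correlation with the log2 library total was 0.073 for mir-34c and -0.017 for mir-34b. For each 100 counts of mir-34c a library held between 4.16 and 8.41 counts of mir-34b (5.34 ± 0.82, SD, n = 94). The coefficient of variation of this ratio was 15.3%, well under that of either stem-loop.

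The other family members followed mir-34c loosely. The correlation with mir-34c, as residuals of group and L tag over the 94 libraries, was 0.389 for mir-34a and 0.458 for mir-449a. Between mir-34a and mir-449a it was 0.089. At 6 months mir-449a and mir-34c had a raw correlation of 0.186, and at 10 months of 0.43.

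**Figure D2:**
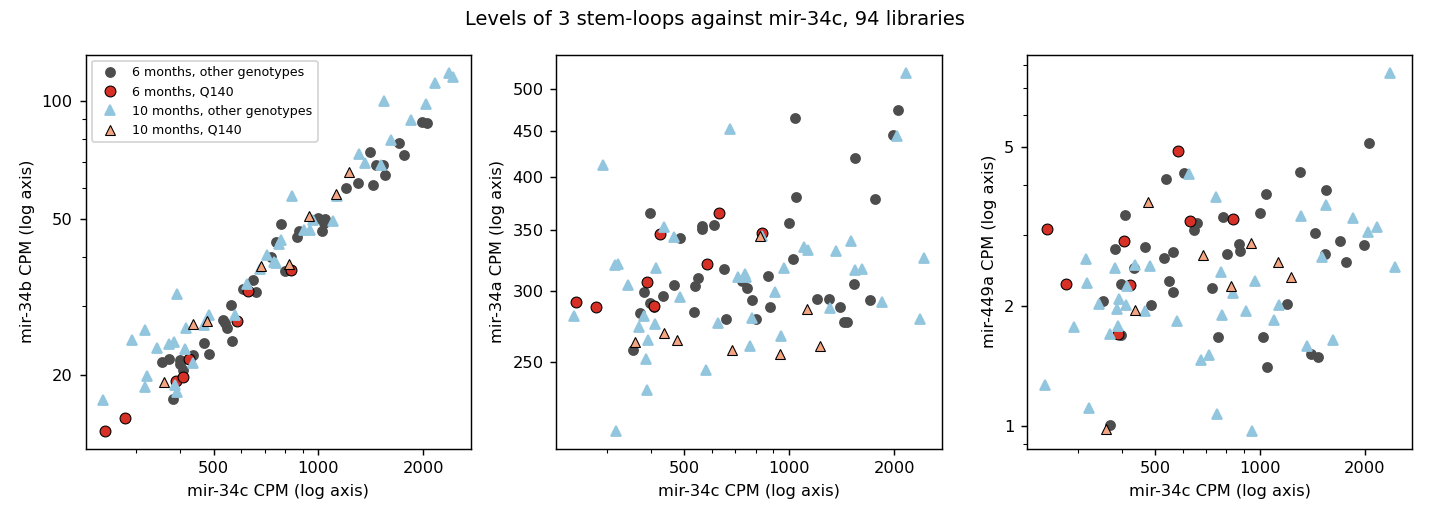
Levels (CPM, log axes) of mir-34b, mir-34a and mir-449a against mir-34c in the 94 libraries retained, with 6 months as circles, 10 months as triangles and Q140 outlined in black. mir-34b follows mir-34c along a narrow band (Pearson correlation 0.974 on the log2 scale), whereas mir-34a (0.357) and mir-449a (0.316) scatter.

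The order of the 12 genotype and age groups by mean CPM was led for mir-34c by Q50 at 10 months (1344 ± 762, SD, n = 8) and closed by Q140 at 6 months (474 ± 197, n = 8). The same groups led and closed the order for mir-34b, at 69.0 ± 36.4 and 23.6 ± 8.19 CPM. Between them, the means of mir-34c fell from 1127 in WT of the Q20 line at 6 months to 659.5 in Q92 at 6 months. Sorting puts similar means side by side, so gaps between neighbours tend to be small and do not measure how far groups differ. No group mean of mir-34b or mir-34c differed from the next in the order by 1 pooled SD. The largest such gap was 0.523 SD for mir-34b and 0.498 SD for mir-34c, in both cases between Q92 and Q140 at 6 months. For mir-34a the 12 means lay between 275 CPM (Q140 at 10 months) and 354 CPM (Q50 at 10 months). For mir-449a they lay between 1.95 CPM (WT of the Q20 line at 10 months) and 3.22 CPM (Q50 at 10 months).

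Q140 was compared with the controls at each age. The Q92 and Q140 lines had no WT littermates here. Repeat length and mouse line therefore cannot be told apart in this comparison, in that of Q92 or in the fit on CAG length. In the 8 Q140 libraries at 6 months, mir-34b had a lowest level of 14.4 CPM, a median of 20.9 and a highest of 37.2. The 23 controls of that age had a lowest of 21.3, a median of 48.5 and a highest of 87.8. Thus 8 of 8 Q140 libraries were under the control median and 4 of 8 were under the lowest control, but the groups overlapped. mir-34b was lower in Q140 by edgeR's quasi-likelihood test, with a log2 fold change of -0.96 (SE 0.28, adjusted p = 0.049 over 434 stem-loops). It was the only one of the 4 that fell past the threshold of 0.05, where 1.84% of all stem-loops tested were called lower (8 of 434).

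mir-34c showed a change of the same size that did not pass the test. Its lowest, median and highest levels were 244, 416 and 834 CPM in Q140 and 372, 997 and 2049 CPM in the controls. Again 8 of 8 Q140 libraries were under the control median, and 2 of 8 were under the lowest control. The log2 fold change of mir-34c was -0.97 (SE 0.32, edgeR adjusted p = 0.0723). With DESeq2 in place of edgeR mir-34c passed as well (adjusted p = 0.034), but DESeq2 called 24 of 434 stem-loops here, where edgeR called 10. With limma on log2(FPKM + 1) mir-34c did not pass. It was called in 3 of 11 other settings, with an adjusted p between 0.034 and 0.145. The median log2 fold change over the 4 stem-loops was -0.47, beside 0.01 over all those tested. This median lies between the values of mir-34b and mir-34c and those of mir-34a (0.02) and mir-449a (0.06). It therefore describes no single stem-loop and no fall shared by the 4.

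mir-34a and mir-449a showed no such difference in Q140 at 6 months. mir-34a had a median of 314 CPM in Q140 (lowest 288, highest 365) and of 302 CPM in the controls (277 to 475). Its log2 fold change was 0.02, with a 95% interval of -0.14 to 0.19. mir-449a had a median of 3.01 CPM in Q140 (1.70 to 4.88) and 2.70 CPM in the controls (1.0 to 5.11). Its log2 fold change was 0.06, with a wider interval of -0.31 to 0.43.

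**Figure D3:**
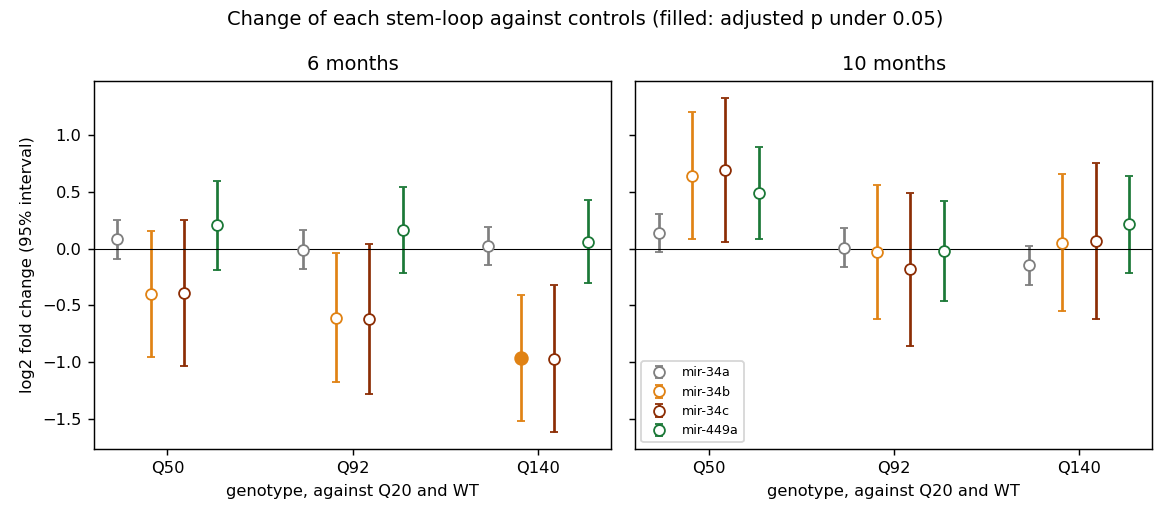
log2 fold change of each stem-loop in Q50, Q92 and Q140 against the controls (Q20 and WT) at 6 months (left) and 10 months (right), with 95% intervals from edgeR. The filled point, mir-34b in Q140 at 6 months (-0.96), is the one with an adjusted p under 0.05; at 10 months the Q140 values of mir-34b and mir-34c are 0.05 and 0.07.

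At 10 months mir-34b and mir-34c had nearly the same levels in Q140 and controls. mir-34b had a median of 38.1 CPM in Q140 (19.2 to 66.1) and 36.6 CPM in the 24 controls (17.3 to 115), and mir-34c 756 CPM (361 to 1225) and 685 CPM (241 to 2439). The log2 fold change was 0.05 (SE 0.30) for mir-34b and 0.07 (SE 0.34) for mir-34c. mir-34a was under the control mean in 7 of 8 Q140 libraries, with a log2 fold change of -0.15 (SE 0.09, edgeR adjusted p = 0.574). None of the 4 was called at 10 months, where 2.3% of all stem-loops were called (10 of 434). At an unadjusted p under 0.05 the count was 0 as well, and DESeq2 and limma on log2(FPKM + 1) also called 0 of the 4.

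The change in the Q140 effect from 6 to 10 months was tested as an interaction. The effect was higher at 10 months by 1.03 on the log2 scale for mir-34b (95% interval 0.21 to 1.85) and by 1.06 for mir-34c (0.12 to 2.0). After adjustment over 434 stem-loops the edgeR p was 0.422 for mir-34b and 0.607 for mir-34c, so a difference between the ages was not established, and 0.0% of all stem-loops passed. Combined over both ages the change was -0.46 for mir-34b (adjusted p = 0.169) and -0.45 for mir-34c (adjusted p = 0.242). There 0 of the 4 and 5.07% of all stem-loops tested were called. One of the 4, mir-34b, had an unadjusted p under 0.05, and DESeq2 and limma called 0 of the 4.

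Levels were also fitted against CAG length as a number, with WT set at 7 repeats, a comparison that shares its libraries with those above. At 6 months the slope per 100 CAG was -0.75 for mir-34b (SE 0.19, edgeR adjusted p = 0.0221) and -0.76 for mir-34c (SE 0.22, edgeR adjusted p = 0.0473). These 2 of the 4 were called lower, where 2.53% of all stem-loops were called lower (11 of 434). The 2 lie 451 bases apart and varied together (residual correlation 0.981), so their calls are not separate observations. The slopes of mir-34a and mir-449a were 0.01 and 0.09. The fitted Q50, Q92 and Q140 changes at 6 months were -0.40, -0.61 and -0.96 for mir-34b and -0.39, -0.62 and -0.97 for mir-34c, of which the Q50 and Q92 values did not pass the test. At 10 months the slope was 0.00 for mir-34b and -0.03 for mir-34c. None of the 4 was called there, where 0.461% of all stem-loops were, and the count at an unadjusted p under 0.05 was 0. Over both ages 0 of the 4 and 3.0% of all stem-loops tested were called, with an edgeR adjusted p of 0.118 for mir-34b and 0.152 for mir-34c. These 2 had an unadjusted p under 0.05, and DESeq2 and limma called 0 of the 4.

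The calls at 6 months changed when single libraries were left out. In the main edgeR fits the mir-34b call in Q140 (adjusted p = 0.049) and the mir-34c slope (adjusted p = 0.0473) lay just under the threshold of 0.05. Small shifts of p were therefore enough to change these 2 calls. The mir-34b call in Q140 was lost in 21 of the 46 fits that each left out 1 library, where its log2 fold change lay between -1.04 and -0.88 and the edgeR adjusted p between 0.0501 and 0.103. The libraries concerned were Q140 females 1, 2, 3 and 4 and male 1, Q20 females 1 and 4 and males 1 and 4, Q50 females 1 and 3 and males 1 and 4, Q92 females 3 and 4 and male 3, WT of the Q20 line female 4 and male 3, and WT of the Q50 line females 3 and 4 and male 4. The mir-34c slope on CAG length lost its call in 25 of 46 such fits (slope -0.79 to -0.69, adjusted p 0.0505 to 0.104). These left out Q140 females 1, 2, 3 and 4 and males 1 and 2, Q20 females 1 and 4 and males 1 and 4, Q50 female 3 and males 1 and 4, Q92 females 1 and 4 and males 1, 2 and 3, WT of the Q20 line females 3 and 4 and male 1, and WT of the Q50 line females 1, 3 and 4 and male 4. The mir-34b slope was lost without Q140 female 1, female 4 or male 1 (adjusted p 0.0567, 0.0521 and 0.0541). mir-34c in Q140 passed without Q50 male 3 or Q92 female 2 (adjusted p 0.0439 and 0.0326). No fold change or slope of mir-34b or mir-34c at 6 months changed sign in these fits.

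Within L tags 2 and 3 the Q140 value of mir-34b and mir-34c was negative at 6 months. For mir-34b it was -1.0 (SE 0.26) with tag 2 (3 Q140 and 3 control libraries) and -1.07 (SE 0.38) with tag 3 (4 and 12), and for mir-34c -0.87 and -1.13. Tag 4 held 1 Q140 library, beside 8 controls, and gave -0.47 for mir-34b and -0.62 for mir-34c; this library is assumed to vary like the others, so these are values without a check of their own. At 10 months the tags differed in sign: mir-34b had -0.66 (SE 0.49) with tag 1 and 0.46 (SE 0.38) with tag 8, and mir-34c had -0.72 and 0.43. No Q140 value within a single tag passed the test after adjustment over the stem-loops.

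**Figure D4:**
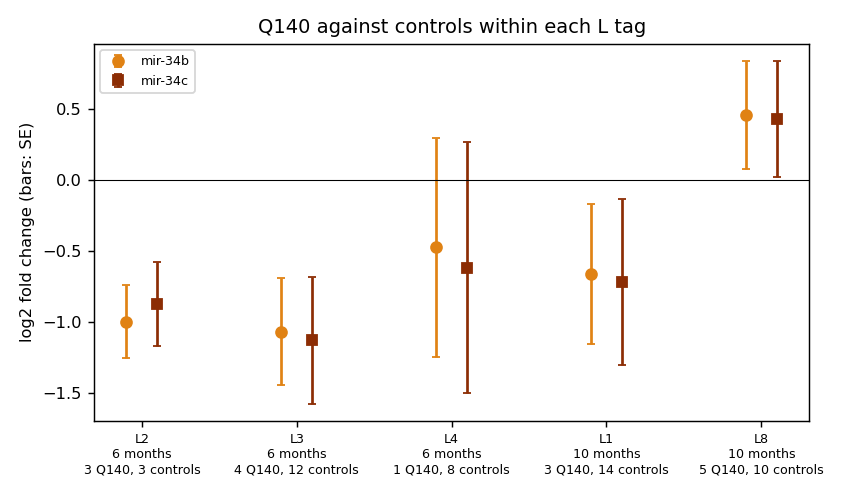
log2 fold change of mir-34b (circles) and mir-34c (squares) in Q140 against controls, fitted within each L tag of the library name, with bars of 1 SE and the number of libraries under each tag. Tags 2 and 3 of 6 months give negative values (-1.0 and -1.07 for mir-34b), tag 4 holds 1 Q140 library whose bar comes from the spread of the other libraries, and the 2 tags of 10 months lie on either side of 0 (-0.66 and 0.46).

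In Q92 at 6 months mir-34b had a median of 27.1 CPM (17.4 to 73.1, n = 7), with 6 of 7 libraries under the control median. mir-34c had a median of 531 CPM (383 to 1759) and was likewise under the control median in 6 of 7. Q92 female 2 was far above the others at 1759 CPM of mir-34c. The changes of mir-34b and mir-34c (-0.61 and -0.62) had an edgeR adjusted p of 0.862 each. Without Q92 female 2 they were -0.99 and -1.10 (edgeR adjusted p = 0.0742 and 0.0968), which also did not pass. That library held the highest values of its group, so leaving it out lowers the estimate. Over all fits without 1 library the changes ran from -0.99 to -0.48 (mir-34b) and from -1.10 to -0.49 (mir-34c). At 10 months the changes were -0.03 and -0.18. In Q92 0 of the 4 and 0.0% of all stem-loops were called by edgeR at each age and in the combination of ages. DESeq2 and limma also called 0, while 1 of the 4, mir-34b, had an unadjusted p under 0.05 at 6 months in edgeR.

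In Q50 the levels of mir-34b and mir-34c were low at 6 months and high at 10 months relative to the controls, without passing the test at either age. At 6 months mir-34c had a median of 646 CPM in Q50 (355 to 1982), beside 997 CPM in the controls. Its log2 fold change was -0.39 (SE 0.32). Without Q50 male 3 of that age, the highest of its group, the change of mir-34c was -0.69. Over all fits without 1 library it ran from -0.69 to -0.29. At 10 months its median was 1408 CPM (416 to 2368), beside 685 CPM, and the log2 fold change was 0.69 (SE 0.32, edgeR adjusted p = 0.257). The 8 Q50 values at 10 months were widely spread, with 5 over the control mean and 3 under it. mir-34b gave 0.64 (SE 0.28, adjusted p = 0.225) and mir-449a 0.49 (SE 0.20, adjusted p = 0.195) at 10 months. Q50 male 3 held the highest mir-34b (118 CPM) and the highest mir-449a (7.67 CPM) of all libraries. Without it the changes were 0.43 for mir-34c, 0.41 for mir-34b and 0.20 for mir-449a (edgeR adjusted p = 0.651, 0.607 and 0.743). mir-34a had a log2 fold change of 0.14 (SE 0.08, adjusted p = 0.401), which was 0.09 without Q50 female 2 and 0.08 without female 3. Within tag 8 its change was 0.40 (SE 0.09, edgeR adjusted p = 0.047) and within tag 1 it was -0.14 (SE 0.12). The tag 8 value rests on 4 Q50 and 10 control libraries. It was the only adjusted p under 0.05 among the 4 stem-loops in all genotypes and tags, so it was picked from many. The share of all stem-loops called in that fit was not recorded.

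None of the 4 was called in Q50 at 10 months, where 3.69% of all stem-loops were called (16 of 434). At an unadjusted p under 0.05 edgeR had 3 of the 4 (mir-34b, mir-34c and mir-449a), and DESeq2 and limma called 0. At 6 months and over both ages 0 of the 4 and 0.0% of all stem-loops were called by edgeR, and DESeq2 and limma called 0 as well. Over both ages mir-449a alone of the 4 had an unadjusted p under 0.05, with a change of 0.35 (SE 0.14, adjusted p = 0.513), or 0.20 without Q50 male 3 of 10 months (adjusted p = 0.993). In the interaction test the Q50 effect at 10 months minus that at 6 months was 1.05 for mir-34b (edgeR adjusted p = 0.187) and 1.09 for mir-34c (adjusted p = 0.215). A difference between the ages was not established, and 0.0% of all stem-loops passed.

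Against their own WT littermates, the Q20 and Q50 lines gave no call among the 4 at either age, and edgeR called 0.0% of all stem-loops tested in each of these comparisons. DESeq2 and limma also called 0 of the 4; over all stem-loops DESeq2 called 2 in Q20 at 6 months. In Q20 the log2 fold changes of the 4 ran from -0.20 (mir-34c at 10 months) to 0.33 (mir-449a at 10 months), all with an edgeR adjusted p over 0.05. mir-34b and mir-34c in Q20 at 6 months gave -0.05 (SE 0.33) and -0.09 (SE 0.38). In Q50 at 10 months mir-449a gave 0.63 (SE 0.26, unadjusted p = 0.0187 and adjusted p = 0.373 in edgeR), the only one of the 4 with an unadjusted p under 0.05 in these edgeR fits. Without Q50 male 3 it was 0.31.

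Sex was compared at each age within genotype groups. At 10 months control females had a median of 901 CPM of mir-34c (241 to 2439, n = 12) and control males of 531 CPM (292 to 946, n = 12). Females were higher by 0.51 on the log2 scale for mir-34c (SE 0.24, edgeR adjusted p = 0.208) and by 0.49 for mir-34b (SE 0.21, adjusted p = 0.173) over all genotypes. At 6 months the difference was 0.03 for mir-34c and -0.02 for mir-34b, while mir-34a was higher in females by 0.16 (SE 0.06, adjusted p = 0.19). None of the 4 was called at 6 or at 10 months, where 2.53% and 7.6% of all stem-loops were called, and DESeq2 and limma called 0 of the 4. At an unadjusted p under 0.05 edgeR had 1 of the 4 at 6 months (mir-34a) and 2 at 10 months (mir-34b and mir-34c). In Q140 at 6 months mir-34c had a median of 334 CPM in the 4 females and 503 CPM in the 4 males. The interaction of Q140 with sex was 0.94 for mir-34c (SE 0.59) at 6 months and 1.32 (SE 0.68) at 10 months, with an edgeR adjusted p of 0.897 and 0.997, and 0.0% of all stem-loops passed at each age.

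A few other stem-loops varied almost in step with mir-34b and mir-34c. Over the 94 libraries, 6 of 433 others had a residual correlation over 0.9 with mir-34c and 9 had one over 0.8. For mir-34b the counts were also 6 and 9. After mir-34b (0.981), the most alike to mir-34c were MI0004130 (0.947), MI0004300 (0.944), MI0001638 (0.936) and MI0004310 (0.935), whose names were not matched here. These 4 varied more than mir-34c: MI0004300 ran from 16.1 to 2398 CPM and MI0001638 from 1.13 to 291 CPM. Their changes in Q140 at 6 months were -1.59 to -3.29 on the log2 scale (edgeR adjusted p between 0.0372 and 0.0513), and at 10 months -0.12 to 0.19. Of the 11 stem-loops whose slope on CAG length was called lower at 6 months, 2 were mir-34b and mir-34c and 7 others had a residual correlation over 0.8 with mir-34c. The tests of these stem-loops rest on the same libraries, so they add no separate evidence.

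mir-34a and mir-449a had no such close companions. The stem-loop most like mir-34a was MI0000607, with a residual correlation of 0.723, and 14 of 433 were over 0.5. For mir-449a the highest was 0.527 (MI0000579), and mir-34b had 0.478. None of the 5 stem-loops most like mir-34a was called in Q140 at 6 or 10 months. Of the 4 others most like mir-449a beside mir-34b, MI0000241 was called in Q140 at 6 months (-0.33, edgeR adjusted p = 0.0237). There 1.84% of all stem-loops were called lower. The correlation of MI0000241 with mir-449a was 0.485 as residuals and 0.128 raw. MI0000579 was called in Q50 at 10 months (0.40, edgeR adjusted p = 0.0336), where 3.69% of all stem-loops were called.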

How the data were processed

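Total RNA of cerebellum was extracted with the Qiagen miRNeasy kit and sequenced as single-end small RNA libraries (CASAVA 1.8.2 in the submitters' processing notes). According to the paper, clipped reads were aligned with STAR to mm10 and counted with HTSeq. The authors deposited a table of expected counts, in which some values are not whole, and a table of FPKM of the same 96 libraries. The paper does not describe how the values that are not whole arose. Counts were rounded and fitted with edgeR 4.0.16 in R 4.3.3 (TMM factors, quasi-likelihood test) at each age, with genotype, sex and L tag as terms. The filter on low counts asked, separately at 6 and at 10 months, for 8 or more libraries with 10 or more counts, and 434 of 1187 stem-loops passed. p-values were adjusted by the Benjamini-Hochberg method over these 434, with a threshold of 0.05. Z.k was computed from variance-stabilized counts as in the study's methods. Both ages were combined by signed z values. CPM is the count scaled to the library total. DESeq2 1.42.0 and limma 3.58.1 served as alternatives. The edgeR fits were also run on simulated counts with less spread between libraries than mir-34b and mir-34c had. That run therefore says nothing of how reliable the calls of mir-34b and mir-34c are.

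The members and lists were chosen with earlier results of these data known. The named stem-loops were the 4 members and, for each, the 5 others with the highest residual correlation of log2(CPM + 1). The fixed lists of cell type markers and p53-linked stem-loops, and mir-449b and mir-449c, were not analysed here because no table used here pairs their names with identifiers. The 4 members' names come with their identifiers; the lengths implied by counts and FPKM (102, 84, 77 and 91 bases) equal those of the RefSeq hairpins of mir-34a, mir-34b, mir-34c and mir-449a. No 2 libraries held identical values. Intervals on the log2 scale are at 95%.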

Additional observations from a re-analysis of the deposited data

Results flagged for a closer look

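Within single groups of 4 libraries, 12 of 96 combinations of group and stem-loop held a library far from the other 3 by Dixon's test of the gap to the nearest library. For independent values with a normal spread, chance flags about 1 in 20. The CPM here were not logged, and mir-34b and mir-34c varied together, so the flags are not separate. The 12 therefore do not measure an excess over chance. mir-34c stood high in Q20 male 4 at 6 months (1534 CPM, others 756 to 803), Q50 female 3 at 6 months (1040 CPM, others 468 to 563), Q92 female 2 at 6 months (1759 CPM, others 383 to 561) and Q92 male 1 at 10 months (1130 CPM, others 317 to 344). mir-34b stood high in that same Q50 female (48.9 CPM, others 24.2 to 26.4) and in that same Q92 male (57.3 CPM, others 18.7 to 23.4). mir-34a stood high in Q140 male 3 at 10 months (344 CPM), Q20 male 4 at 10 months (413 CPM) and WT of the Q50 line male 3 at 6 months (380 CPM). mir-34a stood low in Q92 female 2 at 10 months (210.1 CPM, others 311 to 316) and WT of the Q50 line female 2 at 10 months (233 CPM). mir-449a stood high in Q92 female 4 at 6 months (4.16 CPM, others 2.58 to 2.78).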

How the results depend on the processing

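Each of 72 values (4 stem-loops in 18 comparisons) was recomputed under up to 11 other settings and without each of 94 libraries in turn. The slope on CAG length and the sex comparison take all groups, so no fit of the compared groups alone was run for them, and comparisons with WT littermates have no version with WT alone as controls. Calls changed for 4 values, and no called value changed sign. Of 748 values under other settings 11 changed their call; 38 uncalled values near 0 changed sign, the largest of them 0.19 in size. mir-34c in Q140 at 6 months (-0.97) was called with DESeq2 (-0.97), without the L tag (-1.06) and with the compared groups alone (-1.01). mir-34b in Q140 at 6 months (-0.96) was not called without the filter (-0.97, adjusted p = 0.0823) or with WT alone as controls (-0.95, adjusted p = 0.0771). At 6 months the mir-34c slope (-0.76) was not called without the filter (-0.76), with WT alone (-0.69) or with libraries of Z.k under -3 left out too (-0.71), which was added once the data had been seen; the mir-34b slope was not called with WT alone (-0.68). With a replicate block, mir-34b in Q140 (-0.99, edgeR adjusted p = 0.0582) and the mir-34c slope (-0.80, edgeR adjusted p = 0.0666) were not called. Deviations of same-numbered libraries had a mean correlation of 0.0283, with 85 of 230 pairs over 0.1. For differently numbered libraries the mean was -0.0096, with 215 of 690 pairs over 0.1. The difference was not tested, so whether the replicate numbers pair the animals is not settled. Without single libraries the values at 6 months ran from -1.11 to -0.88 (mir-34b in Q140), -1.16 to -0.85 (mir-34c in Q140), -0.85 to -0.70 (mir-34b slope) and -0.88 to -0.69 (mir-34c slope). The cause of these changes was not tested. Depth limits mir-449a, with 6 to 51 counts in a library, and reads of both arms are summed.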
